A study of Saccharomyces cerevisiae with 4 samples.

Results

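Xrn1-sensitive unstable transcripts (XUTs) are noncoding RNAs of yeast, and the 433 described here are all the entries of the deposited annotation whose transcript name starts with XUT, out of 6030 annotated transcripts. They were measured in newly made RNA of a budding yeast strain (Saccharomyces cerevisiae, genotype Y40343 Ssl2-FRB::kanMX6) whose Ssl2 protein carries an FRB tag, in 2 libraries without rapamycin (the group no rapa) and 2 libraries with it (with rapa). Ssl2 is the DNA translocase of TFIIH, the general factor that helps RNA polymerase II open promoter DNA. In the anchor-away method, rapamycin couples a protein bearing FRB to an anchor that is exported from the nucleus. All cells carried the tagged Ssl2, grew at 30 C in YPD, a rich medium, between OD600 0.1 and OD600 0.8, and were labelled with 5 mM 4-thiouracil for 6 min. The labels give neither the rapamycin dose nor its duration, and no group without the tag is among the samples, so effects of rapamycin itself and of Ssl2 removal cannot be told apart. The labels do not say whether replicates were separate cultures, so p-values measure only how far these libraries spread, which may be technical.

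XUTs are made by RNA polymerase II and carry a cap and a tail like mRNAs. They became visible in cells lacking Xrn1, the cytoplasmic exonuclease that degrades decapped RNA, and a large share of them run antisense to genes. Antisense transcripts of this kind are known at some yeast loci to lower the output of the gene they cross, often through chromatin marks laid down in their wake. The labels name no change in XRN1, so these libraries show what remains of XUTs within a short label in cells with no stated decay defect.

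Start regions are shown because TFIIH acts there. For the called XUTs with the 3 highest and the 3 lowest fold changes among those whose mean log2 CPM reached 2, the window from 250 bases before to 50 bases into the transcript was read from the R64 genome on the transcript strand, and stretches in untranslated ends of neighbouring genes were left out. The 4 windows that kept at least 100 bases are printed, the first pair from XUTs that rose and the second from XUTs that fell. Capitals mark the TATA-like word TATAAA or its reverse complement.
XUT_2R-121 (chrII:289110-289331, minus strand): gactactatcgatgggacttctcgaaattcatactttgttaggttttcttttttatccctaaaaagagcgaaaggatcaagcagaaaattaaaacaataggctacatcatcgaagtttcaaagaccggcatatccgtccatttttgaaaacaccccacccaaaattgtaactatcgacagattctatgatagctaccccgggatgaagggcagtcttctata
XUT_6F-62 (chrVI:134610-134909, plus strand): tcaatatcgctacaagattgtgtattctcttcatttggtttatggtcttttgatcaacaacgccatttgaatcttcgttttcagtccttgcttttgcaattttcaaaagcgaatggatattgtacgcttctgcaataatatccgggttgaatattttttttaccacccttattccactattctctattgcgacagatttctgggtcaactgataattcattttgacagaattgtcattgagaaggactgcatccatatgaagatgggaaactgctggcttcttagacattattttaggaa
XUT_11F-281 (chrXI:642751-643050, plus strand): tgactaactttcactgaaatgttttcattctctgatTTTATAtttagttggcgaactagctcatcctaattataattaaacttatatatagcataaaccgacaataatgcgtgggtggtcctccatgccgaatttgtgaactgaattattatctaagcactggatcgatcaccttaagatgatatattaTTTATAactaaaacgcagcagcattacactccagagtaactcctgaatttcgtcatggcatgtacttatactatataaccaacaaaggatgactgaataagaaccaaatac
XUT_15R-430 (chrXV:976918-977041, minus strand): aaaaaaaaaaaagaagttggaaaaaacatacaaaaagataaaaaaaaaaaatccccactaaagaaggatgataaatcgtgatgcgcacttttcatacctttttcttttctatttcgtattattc
In XUT_11F-281 the reverse complement of the word began at positions -214 and -61, with the annotated start as 0, and the other 3 stretches hold it in neither orientation. The motif counts below cover the full windows. Over all XUTs, TATAAA stood on either strand in 196 of 433 windows (45.3%), against 2693 of 6030 windows of all features (44.7%) and 2229 of 4928 windows of open reading frame (ORF) transcripts (45.2%). It stood in 54 of the 103 windows of XUTs called higher (52.4%), in 6 of the 10 of XUTs called lower and in 96 of the 219 of uncalled ones (43.8%). On the transcript strand alone it stood in 27 windows of XUTs called higher (26.2%), 4 of those called lower and 73 of uncalled ones (33.3%). The share over all features on that strand was 28.6%. The core word of the general regulatory factor Reb1, CGGGTAA, stood on either strand in 16 XUT windows (3.70%) and in 457 ORF windows (9.27%), with 8.41% over all features. Other noncoding classes were also below ORFs, with 5% for stable unannotated transcripts and 5.3% for cryptic unstable transcripts. CGGGTAA occurred in 3 windows of XUTs called higher (2.91%). The median G+C content of the windows was 36.3% for XUTs and 35.7% for ORFs. Annotated starts of XUTs may be off by some bases, so these counts describe windows and not promoters mapped base by base.

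The annotation gave the XUTs a median length of 760 bp, from 228 to 3874 bp, against 1431 bp for ORF transcripts. Of the 433, 267 overlapped at least 1 ORF transcript on the opposite strand, 215 of them exactly 1, and 166 overlapped none. XUTs shared bases with another annotated transcript of the same strand in 172 cases, and 14 overlapped a same-strand gene of the R64 annotation, among them the annotated noncoding RNAs TBRT and RME3. Feature counts were 11441998 to 32435994 per library, and reads outside every feature were 33.1% to 33.7% of reads without rapamycin and 49.9% to 50.5% with it.

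XUTs were weakly represented in all 4 libraries and took a larger share of the feature counts with rapamycin. They held 0.168% and 0.159% of feature counts without rapamycin and 0.211% and 0.289% with it, against at least 99.1% for ORFs. Both shares with rapamycin lay above both without it. The 6 XUTs with the highest level per kb without rapamycin, a choice that favours a fall, held 39.7% and 40.2% of XUT counts without rapamycin and 14.3% and 11.2% with it. The 6 strongest of each library held 42.7% and 42.2% without and 26.4% and 18.3% with rapamycin, chosen by counts. Without the first 6, the XUT share was 0.101% and 0.0952% without rapamycin and 0.180% and 0.256% with it. In RNA from a whole culture, more cells making a transcript and more of it per cell cannot be told apart, nor can synthesis and decay within the label.

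Per length, the median XUT had a level of 1.18 and 1.33 CPM per kb (CPM, the count scaled to library size, here with TMM factors) in no rapa replicates 1 and 2 and 2.25 and 4.63 CPM per kb in with rapa replicates 1 and 2. The libraries with rapamycin were both higher but differed from each other by a factor of more than 2. The median ORF had 54.9 and 55.04 CPM per kb without rapamycin and 45.2 and 43.4 with it, so the median XUT stayed far below the median ORF in each library. CUTs, the cryptic unstable transcripts degraded in the nucleus, had medians of 0.439 and 0.724 CPM per kb without rapamycin and 1.51 and 3.16 with it. XUTs with no count numbered 60 and 51 without rapamycin and 95 and 51 with it, while the libraries with rapamycin were less deep. The difference between the 2 libraries with rapamycin was not limited to XUTs. With rapa replicate 2 was above replicate 1 for 248 of 332 tested XUTs (74.7%; median log2 ratio 0.53, pseudocount 0.5 CPM), for 79 of 87 tested ORFs under 3 CPM per kb (90.8%; 1.18) and for 47.8% of all tested ORFs (-0.02). Counting error alone makes such low levels imprecise, and these values cover no other source of error.

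**Figure D1:**
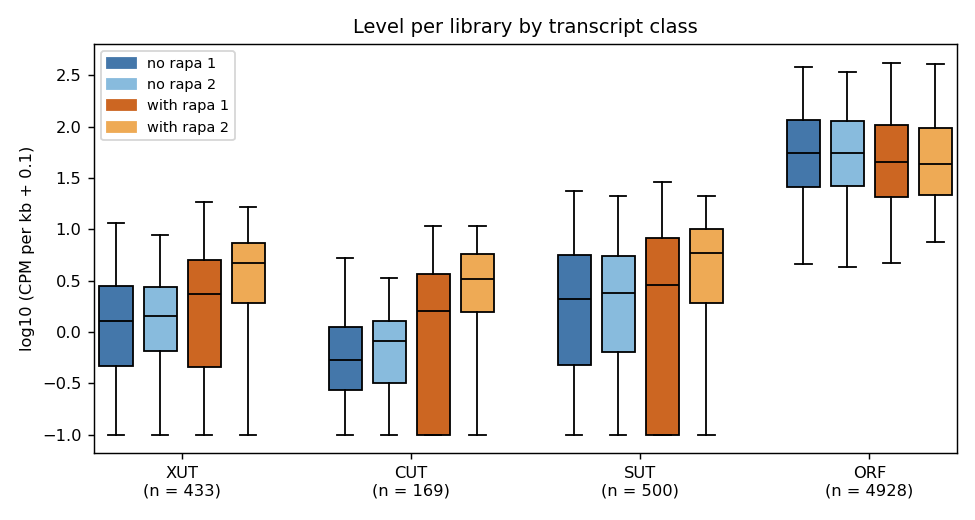
Level of every annotated transcript as log10 (CPM per kb + 0.1), by class (XUT, CUT, SUT, ORF) and library. Boxes span the quartiles with a line at the median, and whiskers reach the 5th and 95th percentiles; XUT medians with rapamycin (orange) lie above those without (blue) while the boxes overlap, and ORF medians lie slightly lower with rapamycin.

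With rapamycin, far more XUTs were higher than lower, relative to most transcripts. The scaling hides a change common to all, so higher here does not mean more XUT RNA per cell. Of 332 XUTs that passed the default count filter of edgeR, 103 were higher, 10 lower and 219 uncalled (quasi-likelihood test of edgeR, p under 0.05 after Benjamini-Hochberg adjustment over 5707 features), and 151 had an unadjusted p under 0.05. Over all tested features 46.0% were called, with 19.3% higher and 26.7% lower, whereas 31.0% of tested XUTs were called higher and 3.01% lower. The median log2 fold change of tested XUTs was 1.26 (quartiles 0.55 and 1.96), against -0.03 over all tested features and -0.14 over ORFs. Both libraries with rapamycin lay above both without it for 203 tested XUTs (61.1%) and below for 21 (6.33%), while over all tested features 34.1% lay above and 40.1% below. Among the XUTs called higher, the estimated change was at least 2-fold for 102, at least 4-fold for 72 and at least 8-fold for 21. XUTs with few reads pass the test only with a large estimate, so these counts depend on depth too. The same counts were not made for all features. The other noncoding classes gave medians of 0.74 for 364 tested SUTs (stable unannotated transcripts) and 2.07 for 101 tested CUTs.

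The other 101 XUTs had too few counted reads for the test, with a median of 5 in all and at most 87. Of them, 42 had no counted read in any library. Among these 101, 74 share bases with a same-strand transcript, where ambiguous reads were not counted, and 27 do not. Of the tested XUTs, 31 lay under the filter level of 0.476 CPM in both libraries without rapamycin and thus entered through the libraries where they were high; 19 of these were called. The other 84 higher calls came from XUTs over the filter level in a library without rapamycin. The count of calls depended on the libraries. It was 29 higher and 5 lower without no rapa replicate 1, 27 and 7 without no rapa replicate 2, 208 and 11 without with rapa replicate 1, and 118 and 39 without with rapa replicate 2. The median log2 fold change in these 4 fits was 1.30, 1.40, 1.55 and 0.83. A fit without 1 library takes its spread from the remaining pair of the other group and assumes that the lone library varies like it.

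**Figure D2:**
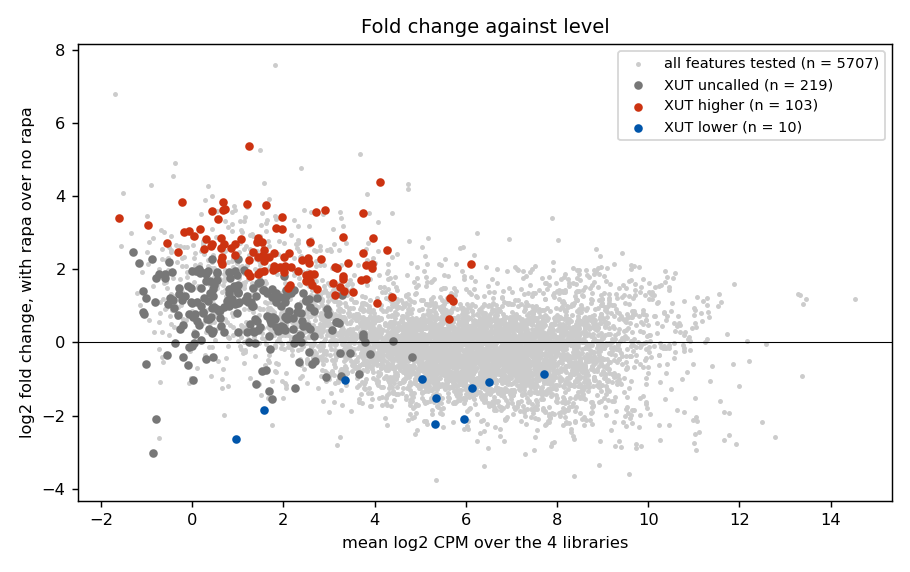
Log2 fold change, with rapa over no rapa, against the mean log2 CPM over the 4 libraries for all 5707 tested features (light grey) and the 332 tested XUTs. The 103 XUTs called higher (red) lie mostly under a mean log2 CPM of 4, and 8 of the 10 called lower (blue) lie above 3.

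ORFs as weakly expressed as XUTs were also more often higher than lower. Among transcripts with a mean of 1 to 3 CPM per kb, 27 of 131 tested XUTs were called higher and 0 lower (median log2 fold change 1.47). Of the 80 tested ORFs in this range, 26 were higher and 0 lower (1.74). At this level a fall leaves few reads in the less deep libraries with rapamycin and is hard to call. The ranges rest on a mean over the 4 libraries, which includes the values compared. At 3 to 10 CPM per kb, 57 of 149 XUTs were higher and 3 lower (median 1.23), and 76 of 304 ORFs were higher and 7 lower (0.45). At 10 to 30 CPM per kb, 15 of 26 XUTs were higher and 4 lower (1.17), and 97 of 1102 ORFs were higher and 313 lower (-0.27). Of these 3 ranges, the ORF median was the higher one at 1 to 3 CPM per kb and the XUT median in the others. Under 1 CPM per kb the median was 0.89 for 22 tested XUTs and 0.80 for 7 ORFs, both below that of the next range. From 30 CPM per kb on there were 4 tested XUTs, of which 3 were lower. The part of the read share outside features, of level and of depth in the XUT values was not tested. The read share outside features differed between the groups and was the same within 1 percentage point inside each group. Its part therefore cannot be told apart from that of the group. Across XUTs, fold change had a Pearson's r of -0.18 and a Spearman's rho of -0.12 with mean log2 CPM (n = 332, all from the same 4 libraries), and -0.07 and -0.09 with log2 length.

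**Figure D3:**
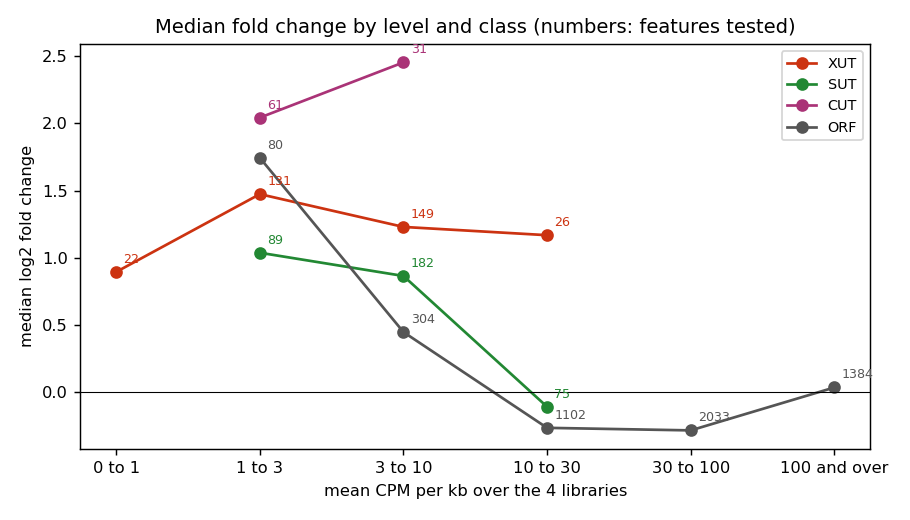
Median log2 fold change, with rapa over no rapa, by mean CPM per kb over the 4 libraries, for XUTs, SUTs, CUTs and ORFs. Points stand for ranges with at least 20 tested features, whose number is printed beside each; XUTs stay above 0.8 in each range shown, and ORFs fall from 1.74 to -0.27 between 1 and 30 CPM per kb.

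Among the 57 called XUTs whose mean log2 CPM reached 2 and whose groups do not overlap, the 8 with the highest fold change were low without rapamycin, at 0.884 to 6.08 CPM, and reached 9.77 to 40.9 CPM with it. XUT_2R-121 (chromosome II, 288326 to 289159, minus strand, R64) had 1.66 and 1.60 CPM without rapamycin and 40.9 and 26.8 CPM with it. Its libraries with rapamycin lay far above both others, and its log2 fold change was 4.37 ± 0.36 (SE; adjusted p = 6.26e-06, edgeR quasi-likelihood test). It starts 173 bp from the start of SCO2, a mitochondrial copper protein gene read the other way, which measured 9.07 and 7.86 CPM without rapamycin and 4.61 and 7.80 with it and was uncalled (-0.44 ± 0.45). XUT_6F-62 (VI, 134860 to 135425, plus strand) had 1.06 and 1.29 CPM without rapamycin and 14.4 and 14.5 with it, a log2 fold change of 3.61 ± 0.48. It lies antisense to the meiotic recombination gene MSH4 in the R64 annotation, and no deposited ORF transcript crosses it.

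XUT_10R-136 (X, 360008 to 361033, minus strand) rose from 1.23 and 0.884 to 12.5 and 12.6 CPM (3.56 ± 0.52). It lies wholly inside the opposite-strand transcript of YJL043W, and its start is 108 bp from that of MHP1, a microtubule-associated protein gene that fell (-2.18 ± 0.23). XUT_1R-40 (I, 73642 to 74559) rose from 2.09 and 2.21 to 27.3 and 23.1 CPM (3.55 ± 0.36). It too lies wholly inside an opposite-strand transcript, that of YAL037W, and it shares bases with a small same-strand ORF transcript, YAL037C-A, so its reads are uncertain in that part.

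XUT_14R-232 crosses nearly the whole transcript of BOP3 and had 1.86 and 2.96 CPM without rapamycin and 15.6 and 20.3 with it. It shares bases with COG6 on its own strand. XUT_4F-617, antisense to the adenine phosphoribosyltransferase relative APT2, went from 4.28 and 3.50 to 36.1 and 20.1 CPM (2.85 ± 0.37). Its start lies 10 bp past the annotated end of DOT1, a histone methyltransferase gene of the same strand. DOT1 had 72.4 and 74.3 CPM without rapamycin and 82.3 and 73.6 with it (0.09 ± 0.17, uncalled). Reads that run on from DOT1 and reads that start at XUT_4F-617 cannot be told apart. XUT_13R-313, antisense to YMR206W, had 1.33 and 1.90 CPM without rapamycin and 9.77 and 11.8 with it. XUT_6R-53 starts 266 bp from SEC4, a secretory GTPase gene, and went from 6.08 and 5.58 to 38.2 and 28.5 CPM (2.51 ± 0.30). In the R64 annotation it overlaps the gene BLM10 on the opposite strand. Of the partners, BOP3 was lower (-0.96 ± 0.21), with 45.4 and 44.1 CPM without rapamycin and 24.1 and 22.0 with it, so sense and antisense moved apart there. YJL043W (1.63 ± 0.40) and YAL037W (1.45 ± 0.49) were higher together with the XUT inside them. Both calls were lost without no rapa replicate 1 (adjusted p = 0.0661 and 0.267, edgeR), and that of YJL043W also without no rapa replicate 2 (0.0696). APT2 had 76.1 and 72.3 CPM without rapamycin and 97.3 and 88.5 with it (0.32 ± 0.17, uncalled). All 8 XUTs stayed called with each library left out in turn. SEC4 was called higher too (0.80 ± 0.26), but not without no rapa replicate 1 (0.60, adjusted p = 0.142, edgeR) nor without with rapa replicate 2 (0.35, 0.137).

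**Figure D4:**
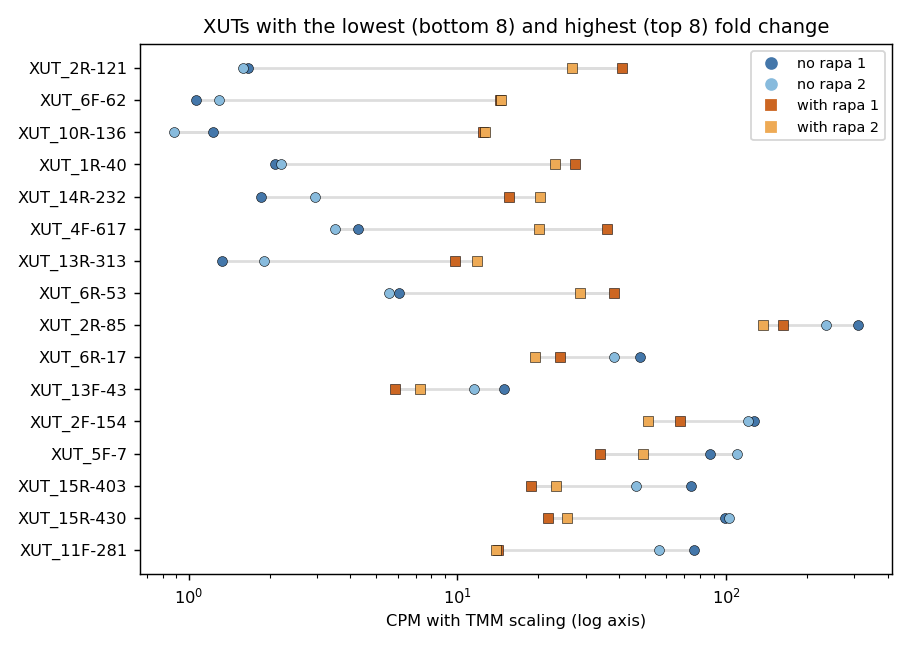
CPM with TMM scaling (log axis) in each library of 16 called XUTs whose mean log2 CPM reached 2 and whose groups do not overlap, the 8 of these that rose most at the top and the 8 that fell at the bottom. Circles are libraries without and squares libraries with rapamycin; groups that do not overlap were a condition of the choice, and XUT_2R-85 is the strongest, at 138 to 310.3 CPM.

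Most XUTs at the top of the level range without rapamycin fell, and ranking by that level favours a fall. Of the 6 XUTs with the highest CPM per kb without rapamycin, 5 were called lower, and the last, XUT_1F-89, measured 17.9 and 14.8 CPM without rapamycin and 12.5 and 13.7 with it (-0.32 ± 0.31, uncalled). XUT_11F-281 (XI, 643001 to 644399, plus strand) had 75.8 and 56.0 CPM without rapamycin and 14.2 and 13.9 with it. It had the lowest fold change of those at a mean log2 CPM of 2 or more (-2.23 ± 0.23, adjusted p = 1.92e-05, edgeR) and starts 265 bp past the silencing gene SIR1 on the same strand, which fell as well (-0.96 ± 0.20). XUT_15R-430 (XV, 976564 to 976967, minus strand) had 99.0 and 102.4 CPM without rapamycin and 21.7 and 25.7 with it (-2.09 ± 0.19). It was the XUT with the highest level per kb, at 249 CPM per kb without rapamycin, and starts 75 bp past TYE7, the gene of a glycolytic activator, on the same strand. TYE7 had 418 and 449 CPM without rapamycin and 131 and 122 with it (-1.78 ± 0.17). Reads that start at such an XUT and reads that run on from the gene before it cannot be told apart.

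XUT_15R-403 runs antisense to nearly all of FAA1, a fatty acyl-CoA synthetase gene, and had 73.9 and 46.3 CPM without rapamycin and 18.8 and 23.3 with it (-1.51 ± 0.26). It shares bases with a same-strand ORF transcript, YOR318C, so its reads are uncertain there. FAA1 itself was higher, with 375 and 309 CPM without rapamycin and 543 and 519 with it (0.64 ± 0.19, adjusted p = 0.0167, edgeR). Leaving out either library lacking rapamycin ended the call of FAA1 (adjusted p = 0.0684 and 0.259, edgeR). This was the pair in which a lower XUT met a higher ORF.

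XUT_2R-85 (II, 218249 to 220787, minus strand) lies antisense to PDR3, a regulator gene of multidrug resistance. It had 310.3 and 235 CPM without rapamycin and 162 and 138 with it (-0.86 ± 0.19), and PDR3 had 221 and 215 CPM without and 116 and 99.0 with (-1.02 ± 0.16). Both strands fell, and the XUT held 64.4% and 58.5% of the summed level per kb of the pair without rapamycin and 64.4% and 64.3% with it. XUT_2R-85 was no longer called when no rapa replicate 1 was left out (-0.66, adjusted p = 0.0554, edgeR). XUT_2F-154, antisense to the amino acid permease gene TAT1 and covering the R64 noncoding RNA TBRT over 2024 bp, had 127 and 121 CPM without rapamycin and 67.1 and 51.2 with it (-1.07 ± 0.18). TAT1 had 150.2 and 124 CPM without and 114 and 87.5 with (-0.45 ± 0.18, uncalled). TAT1 was called without with rapa replicate 1 (-0.68, adjusted p = 0.00135, edgeR).

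The remaining XUTs of this group were XUT_5F-7, XUT_6R-17 and XUT_13F-43. XUT_5F-7, antisense to the hexose transporter gene HXT13 in R64, had 87.0 and 109 CPM without rapamycin and 34.0 and 49.2 with it (-1.24 ± 0.22). The gene DSF1 ends 173 bp before it on the same strand and was almost silent without rapamycin, at 0.598 and 0.578 CPM, against 3.80 and 7.09 CPM with it (3.20 ± 0.72), so gene and XUT moved apart. The call of DSF1 was lost without either library lacking rapamycin (adjusted p = 0.0925 and 0.0841, edgeR). XUT_6R-17, which starts 311 bp from the regulator gene ZNF1, measured 48.0 and 38.4 CPM without rapamycin and 24.1 and 19.5 with it (-0.99 ± 0.23). Leaving out no rapa replicate 1 ended its call (adjusted p = 0.0757, edgeR). XUT_13F-43, at 14.9 and 11.6 CPM without and 5.88 and 7.24 with rapamycin, passed narrowly (-1.01 ± 0.38, adjusted p = 0.0464, edgeR). It lost the call under 5 of 11 other settings. It starts 198 bp past UFO1 on the same strand, which was lower as well (-0.61 ± 0.17), so reads that run on from UFO1 cannot be told apart. Of the ORFs that XUT_13F-43 crosses, ALO1 was lower (-0.65 ± 0.19) and AIM33 uncalled (0.17 ± 0.34). ALO1 lost its call under 1 of 11 other settings. The other 2 XUTs called lower were weak, and they are named here after their values were seen. XUT_15F-281, antisense to ARP8 and sharing bases with SFL1 on its own strand, had 2.72 and 3.03 CPM without rapamycin and 0.814 and 0.142 with it (-2.63 ± 0.89), the lowest fold change of all called XUTs. XUT_11F-102 had 3.89 and 4.63 CPM without and 0.995 and 1.35 with rapamycin (-1.85 ± 0.66). Leaving out no rapa replicate 1 or 2 ended both calls (adjusted p = 0.279 and 0.292 for XUT_15F-281 and 0.307 and 0.376 for XUT_11F-102, edgeR).

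The position of an XUT relative to genes went with small differences in its change. Of 211 tested XUTs with an opposite-strand ORF, 70 were higher and 5 lower, with a median log2 fold change of 1.37. Of 121 tested XUTs without one, 33 were higher and 5 lower, with a median of 1.13. These classes rest on the deposited ORF transcripts alone. Some XUTs without such a partner overlap an R64 gene on the opposite strand, among them XUT_6F-62, XUT_5F-7 and XUT_6R-53. XUTs that cross an ORF and also start within 500 bp of a divergent ORF start had 34 higher and 0 lower of 93, and those that only cross an ORF 36 higher and 5 lower of 118. XUTs that are only divergent had 14 higher and 2 lower of 50, and those that are neither 19 and 3 of 71. XUTs that share bases with a same-strand transcript had fewer counted reads, with a median of 0.508 CPM per kb without rapamycin against 1.75 for the others. Ambiguous reads were counted for no transcript, and the level was divided by the full length, so these values may be too low. The part of this in the difference was not tested. Of the XUTs that share bases, 98 of 172 were tested, against 234 of 261 of the others. Of those tested, 30 and 73 were higher, with medians of 1.13 and 1.34. By length, 12 of 58 tested XUTs under 500 bp were higher and 2 lower, and 9 of 24 of at least 2000 bp were higher and 5 lower. None of these differences between classes was tested.

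The ORFs crossed by XUTs changed much as ORFs did in general. Of 314 partner ORFs, 310 were tested, and 51 were higher (16.5%), 110 lower (35.5%) and 149 uncalled, with a median log2 fold change of -0.29. Of all 4910 tested ORFs, 17.5% were higher and 30.2% lower, with a median of -0.14. The ORFs divergent from an XUT within 500 bp had 26 higher and 56 lower of 190 (13.7% and 29.5%; median -0.12). With a library left out, 29 to 68 partners were higher and 81 to 128 lower.

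Partners were grouped by how the XUT crosses them, and differences between these groups were not tested. Where the XUT lay wholly inside the ORF transcript, 25 of 49 partners were lower and 5 higher (median -0.59). Where it started inside and ran past the ORF start, 44 of 134 were lower and 21 higher (-0.19), and where it started past the far end of the ORF and stopped inside, 37 of 118 were lower and 25 higher (-0.25). Transcript length moved with these values. ORFs with an XUT inside had a median length of 1636 bp against 1434 bp for all tested ORFs, and lower calls made up 9.82% of tested ORFs under 1000 bp, 29.5% from 1000 to under 2000 bp and 53.9% from 2000 to under 3000 bp. Within these length ranges, 5 of 11, 10 of 19 and 6 of 13 ORFs with an XUT inside were lower. The part of length in the difference was not tested beyond these counts.

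XUTs and their partners showed no common direction. Over 254 pairs with both transcripts tested, their log2 fold changes had a Pearson's r of 0.01 and a Spearman's rho of 0.03, given as a description since all pairs come from the same 4 libraries and some share a transcript. Both were called in 44 pairs. In 29 of them the XUT was higher and the ORF lower, in 12 both were higher, in 2 both were lower, and in 1 the XUT was lower and the ORF higher. Of the 82 tested partners of XUTs called higher, 12 were higher and 29 lower (35.4%), and of the 162 tested partners of uncalled XUTs 27 were higher and 55 lower (34.0%). The share of lower partners was thus close in both groups and close to that of all ORFs, 30.2%. The number of pairs called in opposite directions fell to 6 and 7 without no rapa replicate 1 or 2 and was 66 and 39 without with rapa replicate 1 or 2, and that of pairs called in the same direction was 1, 3, 47 and 32 in the same order.

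**Figure D5:**
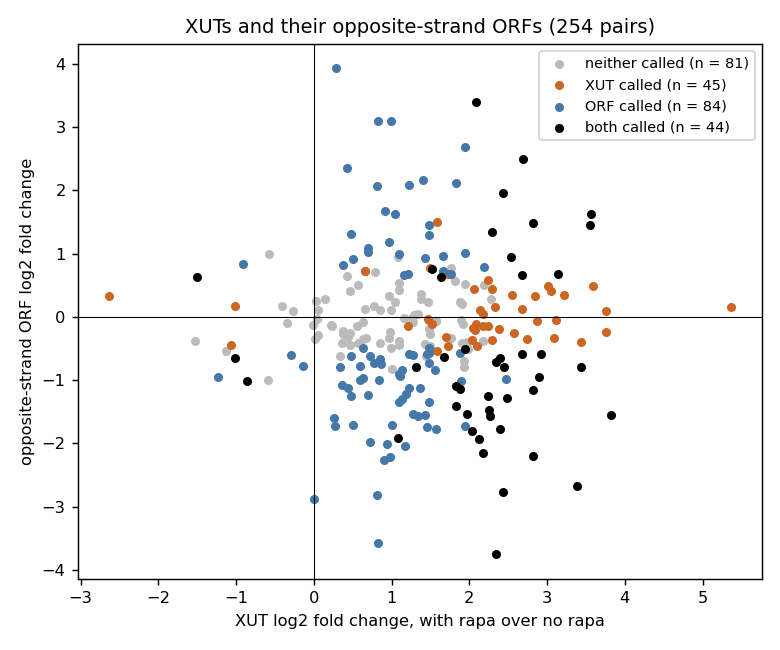
Log2 fold change, with rapa over no rapa, of each XUT (horizontal) and of an ORF it crosses on the opposite strand (vertical), over 254 pairs with both tested. Most points lie to the right of 0 on the horizontal axis and scatter on both sides of 0 on the vertical one.

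At some crossed genes the antisense strand took a larger share of the pair with rapamycin. These 3 examples were picked after their values were seen, from pairs with the XUT called higher and the ORF lower. A larger XUT share with rapamycin thus follows from the choice, and the values give only its size. CIP1, an inhibitor gene of cyclin-dependent kinase, had 47.1 and 46.9 CPM without rapamycin and 10.04 and 14.5 with it (-1.93 ± 0.25). Its antisense XUT_16R-225 (XVI, 527388 to 528846, minus strand) had 5.61 and 4.97 CPM without and 21.8 and 24.2 with rapamycin (2.12 ± 0.33). The XUT held 10.5% and 9.44% of the summed level per kb of the pair without rapamycin and 68.1% and 62.2% with it, so the antisense strand was the weaker in both libraries of one group and the stronger in both of the other. GIC1, which encodes an effector of the polarity GTPase Cdc42, fell from 52.0 and 60.7 to 12.7 and 12.7 CPM (-2.15 ± 0.23). XUT_8F-102, which crosses GIC1 over 1060 bp, rose from 3.45 and 4.42 to 11.8 and 23.8 CPM (2.18 ± 0.43), and held 5.39% and 5.88% of the pair without rapamycin and 44.3% and 61.7% with it. XUT_4F-700 spans the whole of HSP31, a stress-induced chaperone gene, and held 0.654% and 0.598% of that pair without rapamycin and 6.52% and 10.7% with it. HSP31 measured 255 and 310.1 CPM without rapamycin and 97.2 and 64.6 with it (-1.81 ± 0.21). XUT_4F-700 shares bases with SUT083 and XUT_8F-102 with XUT_8F-104, so reads there are uncertain. These 3 pairs kept both calls with each library left out in turn.

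Over all 320 pairs, the median share of the XUT in the summed level per kb was 2.49% and 2.82% without rapamycin and 6.39% and 10.1% with it. XUTs reached at least 10% of that sum in 62 and 64 pairs without rapamycin and in 126 and 160 pairs with it. They were above the ORF in 16 and 12 pairs without it and in 20 and 17 with it. Whether reads of the opposite strand were counted for XUTs was not tested. XUT counts were under 2% of those of the partner in 134 pairs, and without the 103 XUTs that had only such partners, 91 XUTs were higher and 9 lower of 279 tested, with a median log2 fold change of 1.25.

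Of 15 genes on a list known for regulatory noncoding transcripts, 12 had a deposited ORF transcript, and 1 of these was crossed by an XUT, where 314 of all 4928 ORFs were. It was KCS1, which encodes an inositol pyrophosphate kinase. XUT_4F-238, at the start of KCS1, had 0.565 and 0.782 CPM without rapamycin and 1.36 and 1.56 with it, higher in both but uncalled (1.11 ± 0.80, adjusted p = 0.275, edgeR). KCS1 had 323 and 329 CPM without rapamycin and 182 and 157 with it (-0.94 ± 0.17) and was called lower.

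Genes known to degrade noncoding transcripts or to hold antisense transcription down were called in 8 of 23 measured cases, where 46.0% of all features were. Of 28 such genes, 23 had a deposited transcript, and 2 were higher (against 19.3% of all features), 6 lower (against 26.7%) and 15 uncalled. XRN1 itself was not analysed here. The genes lower were SET1 (-1.23 ± 0.21) and SET2 (-1.05 ± 0.18), which encode histone methyltransferases, HDA1 (-1.03 ± 0.18), for a histone deacetylase, RCO1 (-0.87 ± 0.17), for a subunit of the Rpd3S deacetylase, IOC4 (-0.85 ± 0.17), for a subunit of a remodeler, and DCP2 (-0.98 ± 0.22), for the decapping enzyme whose products Xrn1 degrades. SET2 went from 314 ± 2.36 to 151 ± 29.3 CPM and DCP2 from 945 ± 5.55 to 480.4 ± 102 CPM (SD, n = 2). The genes higher were the exosome helicase gene MTR4 (0.56 ± 0.18) and the histone chaperone gene SPT16 (0.82 ± 0.24), and both calls were lost without either library lacking rapamycin (adjusted p of 0.113 and 0.300 for MTR4 and 0.121 and 0.172 for SPT16, edgeR).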

How the data were processed

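Labelled RNA of 4 libraries was analysed, 2 per group, grouped by the titles in the labels. The authors deposited raw read counts per annotated transcript and the annotation. The submitters' processing notes name the aligner STAR 2.3.0, the counter HTSeq, SAMtools, and R64 beside sacCer3 as builds, with neither role nor order. The strand setting of the counting is not given in the sources used here. All 4842 ORFs matched by name in the R64 gene table lay inside their deposited transcript, so positions and sequence were taken from R64 (RefSeq). Rows that name no feature (33.1% to 50.5% of reads outside features, at most 0.0930% ambiguous) entered neither library sizes nor tests. Feature counts were 32435994, 29318499, 11441998 and 12685769. Replicates were no copies of each other (chi-square per degree of freedom of 80.4 and 65.7).

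The test was edgeR 4.0.16 in R 4.3.3 (TMM, filterByExpr, quasi-likelihood F-test, two-sided), Benjamini-Hochberg adjusted over 5707 features at 0.05, checked on simulated counts. Because of TMM, fold changes are relative to most genes, and a change common to all would not show. SEs are the size of the log2 fold change over the root of F. Pairs needed 1 bp of overlap on opposite strands. Alternatives used DESeq2 1.42.0, other factors and filters, fits without a library, a replicate block and other pair rules. Members, lists and tests were chosen with earlier results of these data known. The rule for named XUTs took the 8 highest and 8 lowest called XUTs whose groups do not overlap and whose mean log2 CPM is at least 2, the 6 highest per kb without rapamycin, those crossing a listed gene, and their partners; of a list of decay and antisense genes, up to 6 with the smallest adjusted p.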

Additional observations from a re-analysis of the deposited data

Results flagged for a closer look

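Reads outside every annotated feature, which no comparison above uses, made up a larger share with rapamycin. That share was 50.45% in with rapa replicate 1 and 49.95% in with rapa replicate 2, against 33.72% and 33.05% in the controls. It moved with the XUT levels between groups, and its part in them was not tested.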

How the results depend on the processing

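XUTs were more often higher than lower under each setting tried, and their median stayed above 0. With 1 library left out, XUTs called higher ranged from 27 to 208, those lower from 5 to 39 and their median from 0.827 to 1.55. In the same fits partners called higher ranged from 29 to 68 and lower from 81 to 128, their median from -0.294 to -0.247, pairs called in opposite directions from 6 to 66 and in the same direction from 1 to 47. Without no rapa replicate 1 or 2, the 29 and 27 higher XUTs were all among the 103. The partner median was -0.211 with size factors of DESeq2 in edgeR and with its own test, -0.166 with TMM factors from ORFs, -0.246 with a mean CPM of at least 2 and -0.327 without XUTs under the filter level in both libraries lacking rapamycin (chosen after seeing the data). TMM factors from ORFs moved the median of all features by 0.124. Same-direction pairs numbered 24 with size factors of DESeq2 and 22 with its test. With an overlap of at least 50% of the XUT, 31 partners were higher and 72 lower and 18 pairs opposite; with 50% of the ORF, 24, 42 and 12, 7 pairs in the same direction and a median of -0.17, over fewer partners by construction. Without XUTs under 2% of their partner, 32 partners were higher and 55 lower (median -0.148). AIM33, an uncalled partner, had 0.17 and ranged from -0.0037 to 0.334 with 1 library left out, below 0 without no rapa replicate 1; the cause was not tested. With the replicate block, 103 XUTs were higher and 12 lower, 101 of the higher ones shared with the fit without it. Same-numbered libraries deviated together at r = 0.233, but 2 pairs do not show that the numbers pair them. XUTs with few reads cannot show small changes at this depth.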

Other observations

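Some XUTs outside the rule for named ones were looked up after their values were seen. XUT_7F-400, which starts next to the glycolytic gene TDH3 and crosses PDX1 on the opposite strand, lay under the filter level of 0.476 CPM in both libraries without rapamycin, so it was tested only through the group where it was high, and its fitted fold change rests on a base near 0. It had 0.0664 and 0.170 CPM without rapamycin and 5.34 and 4.90 CPM with it. Among strong XUTs, XUT_10R-84 (X, 224750 to 227074, minus strand), which shares bases with SUT628, was higher. It had 31.4 and 19.9 CPM without rapamycin and 121.9 and 104 CPM with it (2.14 ± 0.23, adjusted p = 2.3e-05, edgeR). XUT_10R-84 kept its call in each fit with a library left out.

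In with rapa replicate 2 the reads on features, 12685769, and those outside them, 12685766, differed by 3; in with rapa replicate 1 they were 11441998 and 11670267.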
